A study of Mus musculus with 33 samples.

Results

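Nuclear genes for the subunits and assembly factors of the mitochondrial respiratory chain were followed through 4 RNA comparisons and 11 iCLIP libraries of mouse motoneurons and NSC34 cells. Membership was decided by gene symbol alone: symbols that begin with the stems of the complex I (Ndufa, Ndufb, Ndufc, Ndufs, Ndufv), complex II (Sdha to Sdhd), complex III (Uqcr, Uqcc), complex IV (Cox4i, Cox5, Cox6, Cox7, Cox8) and ATP synthase (Atp5) families, without pseudogenes. This gave 97 genes of 37926 records in the RNA tables, with 45 in complex I, 6 in complex II, 10 in complex III, 18 in complex IV and 18 in complex V. Of these, 84 encode structural subunits, 11 encode assembly factors and 2 are Atp5s and Atp5sl, which carry the stem in their name. Among 36194 genes of the iCLIP files 93 qualified, and 91 names were found in both data types. Ndufa4 was kept with complex I by its name, although its protein has since been assigned to complex IV. Within every RNA comparison 3 members shared a record with a neighbouring gene (Atp5o with Donson, Ndufb8 with Gm20538 and Sec31b, Ndufb2 with Adck2), so their values are those of the merged record.

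The respiratory chain sits in the inner mitochondrial membrane. Complex I takes electrons from NADH and complex II takes them from succinate, complex III passes them to cytochrome c, and complex IV hands them to oxygen, while complexes I, III and IV pump protons that ATP synthase, complex V, uses to make ATP. Apart from a small set of subunits encoded in mitochondrial DNA, the subunits are translated from nuclear mRNAs and imported, and mRNAs of this class are among the transcripts often found in axons.

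The study asked how hnRNP R, an RNA-binding protein, and its partner, the noncoding RNA 7SK, shape the RNA content of motoneuron axons. CD-1 mouse motoneurons were grown as primary cultures in microfluidic chambers that part axons from cell bodies and dendrites, and RNA was taken from each side. Axons gave 4 GFP control libraries, 3 hnRNP R knockdown libraries and 4 libraries labelled 7SK knockdown; the somatodendritic side gave 4, 3 and 4 in the same order. Which agent made each knockdown, and how the controls received GFP, is not said in these sources. The iCLIP libraries, which count the cDNAs of RNA crosslinked to a precipitated protein, came from wildtype motoneurons and from NSC34, a mouse neuroblastoma and motoneuron hybrid line, with 2 unfractionated libraries for each of these and single nuclear and cytoplasmic libraries with antibody 1. Antibody 2 was used on NSC34 nuclear and cytoplasmic fractions, and 1 IgG library from NSC34 cells served as the control. Whether libraries of a group come from separate cultures is not stated, and a p-value then covers only library-to-library spread, which may be technical.

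The RNA values are FPKM (fragments scaled to transcript length and library size), 1 per group, so no spread between replicates can be shown and the depth of the RNA libraries is unknown. Hnrnpr stood at 9.93 FPKM in control axons and 3.98 after its knockdown, untested, and at 27.2 and 10.8 on the somatodendritic side (q = 0.310) by the authors' deposited table. The 7SK gene, Rn7sk, fell on the somatodendritic side, from 9104 to 6370 FPKM (q = 0.00407), but stood at 2708 in control axons and 3508 in the axons labelled 7SK knockdown (q = 0.594) by the authors' deposited table, against that label. Of 7 motoneuron markers 6 were found by symbol. Among these, Isl1 alone reached 1 FPKM in the somatodendritic control (2.42 FPKM), while Chat, Isl2 and Mnx1 were listed at 0 by the authors' deposited table. Microglia markers (7 genes) summed to 8.32 and 15.7 FPKM in the hnRNP R axon comparison, 8.49 and 109.5 in the 7SK axon comparison, 41.3 and 45.8 in the hnRNP R somatodendritic comparison and 38.0 and 61.1 in the 7SK somatodendritic comparison, control first. Fibroblast markers (6 genes) summed to 560.4 and 696.7 FPKM and to 577.7 and 238.6 FPKM in the axon comparisons in that order, and to 96.4 and 79.6 FPKM and 88.8 and 141.0 FPKM on the somatodendritic side. The knockdowns of a compartment share their controls: the control levels of the members in the 7SK table were those of the hnRNP R table times a constant, a log2 offset of 0.04 in axons and -0.12 on the somatodendritic side. A low or high control value therefore moves both ratios of a gene together, and the comparisons of a compartment are not independent.

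Promoters of these genes are shown first, because many nuclear respiratory genes are textbook targets of NRF1, of ETS family factors such as GABP, of YY1 and of the oestrogen-related receptors. RefSeq promoters (GRCm38.p6, 250 bases before to 50 after a start) were found for 80 of the 97 members, 86 promoters in all. The letters GCGCATGC (NRF1 core), CCGGAAG (ETS), AAGATGGC (YY1) and TCAAGGTCA (ERR) were searched on either strand. None of these motifs contains another. The stretches below run from 120 bases before to 30 after the start, on the strand of the gene, with matches in capitals. They belong to 3 members picked from those with large ratios in axons (Ndufa3, Uqcc2, Cox8a) and to the member that passed the authors' test (Cox7b). The others belong to 2 members with matches to both NRF1 and ETS letters (Uqcr11, Sdhb). Some members not shown had a larger ratio than Cox8a, such as Sdhd (log2 ratio 1.44, beside 1.03 for Cox8a) in the 7SK axon comparison of the authors' deposited table.
Ndufa3: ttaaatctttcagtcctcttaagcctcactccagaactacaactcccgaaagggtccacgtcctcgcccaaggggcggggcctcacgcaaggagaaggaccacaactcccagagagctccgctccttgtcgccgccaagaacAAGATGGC
Uqcc2: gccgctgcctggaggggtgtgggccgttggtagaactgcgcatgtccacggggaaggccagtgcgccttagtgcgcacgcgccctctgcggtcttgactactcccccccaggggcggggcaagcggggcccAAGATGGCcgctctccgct
Cox8a: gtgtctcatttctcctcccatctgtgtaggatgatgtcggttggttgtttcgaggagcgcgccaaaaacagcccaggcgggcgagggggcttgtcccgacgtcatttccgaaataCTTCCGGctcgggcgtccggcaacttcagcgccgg
Cox7b: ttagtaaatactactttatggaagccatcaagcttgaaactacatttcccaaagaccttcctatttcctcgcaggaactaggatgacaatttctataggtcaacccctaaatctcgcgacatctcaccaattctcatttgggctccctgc
Uqcr11: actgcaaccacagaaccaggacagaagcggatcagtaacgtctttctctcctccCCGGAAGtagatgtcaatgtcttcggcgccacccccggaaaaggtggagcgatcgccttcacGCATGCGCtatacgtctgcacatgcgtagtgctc
Sdhb: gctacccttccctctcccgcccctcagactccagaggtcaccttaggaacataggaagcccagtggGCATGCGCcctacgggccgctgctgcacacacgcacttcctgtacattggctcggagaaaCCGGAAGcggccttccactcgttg
On GRCm38.p6 these lie at chr7:3617253-3617402 (plus strand), chr17:27133862-27134011 (minus strand), chr19:7217587-7217736 (minus strand), chrX:106015580-106015729 (plus strand), chr10:80406792-80406941 (minus strand) and chr4:140961151-140961300 (plus strand). Ndufa3 and Uqcc2 carry the YY1 letters just after the start, from positions 23 and 12, on the strand of the gene. Cox8a carries the ETS letters at position -5 on the other strand, with a further match at position 33 past the stretch shown. Cox7b has none of the 4 motifs in its window.

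The YY1 letters were found in 13 of the 86 member promoters (15.1%), beside 2.75% of all 32851 promoters. All but 1 of these 13 matches lay on the strand of the gene, and 10 of them began after the start. The ETS letters were in 19 member promoters (22.1%, beside 8.86% of all promoters), and the NRF1 core in 12 (14.0%, beside 2.71%). The ERR letters were in 2 (2.33%, beside 0.423%), those of Sdhd and of 1 complex V gene. By complex, YY1 letters were in 7 of 41 promoters of complex I and 5 of 20 of complex V, but in 0 of 5 of complex II and 0 of 13 of complex IV. ETS letters were in 4 of the 5 complex II promoters. In the hnRNP R axon comparison the median log2 ratio of tested members was 0.81 for the 7 with YY1 letters and 0.48 for the 42 without, and in axons labelled 7SK knockdown 1.04 for 6 and 0.69 for 32. The ETS letters split the same members the other way in the first table (0.42 for 14 with, 0.55 for 35 without) but not in the second (0.93 for 12, 0.67 for 26). So did the NRF1 core (0.33 for 6 with, 0.59 for 43 without, then 1.02 for 5 and 0.69 for 33). On the somatodendritic side the YY1 medians were -0.07 with and -0.06 without after hnRNP R knockdown, and 0.15 and 0.26 after 7SK knockdown. These are descriptions of exact letter matches and carry no test.

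In control cells most members had a lower FPKM in axons than on the somatodendritic side. Of 74 members at 10 FPKM or more on either side, 5 had the higher value in axons, and the median axon over somatodendritic log2 ratio was -0.77. Over all 5336 records at that level 24.4% were higher in axons, with a median of -0.62. The sides were scaled in separate tables and their difference was not tested. Atp5b, the catalytic beta subunit of ATP synthase, had nearly the same mean control level on either side, 129.8 FPKM in axons and 130.9 on the somatodendritic side. Cox6b2, an isoform of a small complex IV subunit best known from testis, was the one member with a much higher axonal control level (14.6 and 2.27 FPKM). By complex the medians were -0.66 (I, 36 genes), -0.94 (II, 5), -0.77 (III, 9), -0.64 (IV, 11) and -0.84 (V, 13).

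In axons after hnRNP R knockdown, 53 of the 59 tested members had a higher FPKM than in control axons and 6 a lower one, with a median log2 ratio of 0.50. No member was called at q under 0.05 by the authors' test, where 0.114% of the 1749 tested genes were called; at an unadjusted p under 0.05 there were 6 members, all higher, beside 6.29% of all tested genes in that direction. All tested genes had a median of 0.14, with 58.6% higher. The authors tested only well covered genes, and a low gene can reach a test through the group where it is high. The members were therefore also taken by their mean level over the groups, tested or not. In every comparison that mean includes the knockdown value, so it lessens this selection without removing it. Here Ndufa8 (8.18 and 17.2 FPKM) was kept through its knockdown value, while Ndufs1 (10.9 and 8.48) was left out, by the authors' deposited table. Of 68 members at a mean of 10 FPKM or more 59 were higher, with a median of 0.48, beside 55.3% of 3679 records and a median of 0.08. The summed FPKM of all 97 members was 3202 in control axons and 4718 after the knockdown. In bulk axonal RNA, a different mix of cells or axons and a different amount of RNA in each cannot be told apart.

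In axons labelled 7SK knockdown, 45 of 47 tested members were higher and the median log2 ratio was 0.69, beside 0.23 for all 1009 tested genes, of which 62.2% were higher. Cox7b, a small membrane subunit of complex IV (chromosome X, 106015700 to 106022450, GRCm38), rose from 55.4 to 192 FPKM (log2 ratio 1.79, q = 0.0383) by the authors' deposited table. It was the only member called, where 2.28% of tested genes were called higher and 3.07% in either direction. It passed at q under 0.05 and not at q under 0.01. At an unadjusted p under 0.05 there were 12 members, all higher, beside 13.6% of tested genes in that direction. Of 69 members at a mean of 10 FPKM or more 62 were higher (median 0.62), beside 57.3% of 3859 records (median 0.12). The summed FPKM was 3288 in control axons and 5389 in these axons. The summed microglia markers moved with this result (8.49 and 109.5 FPKM), with Tyrobp, a microglial signalling adaptor, at 0.886 and 43.0 FPKM (q = 0.236) by the authors' deposited table. Among the fibroblast markers Acta2, smooth muscle actin, fell from 543 to 176 FPKM (q = 0.00360) in these axons by the authors' deposited table. Acta2 made up most of the fibroblast sum (577.7 and 238.6 FPKM), while the other tested fibroblast marker was higher (log2 ratio 0.77). The part of these markers in the result was not tested.

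**Figure D1:**
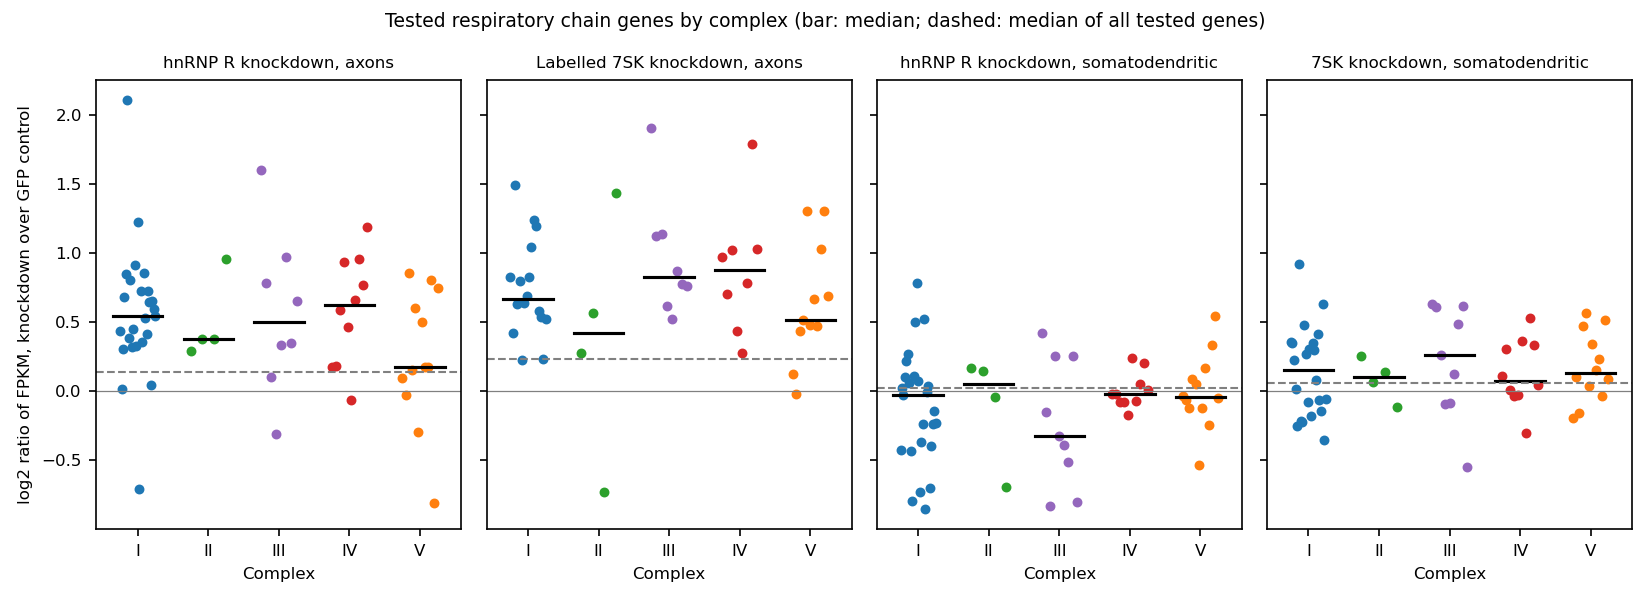
Log2 ratio of FPKM, knockdown over GFP control, for each member the authors tested, by complex, in the 4 comparisons; black bars are medians of a complex and the dashed line is the median of all tested genes. In axons the complex medians lie at or above 0.17, while on the somatodendritic side they lie between -0.32 and 0.27.

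Tested complex I members in axons were nearly all on the higher side of their control. After hnRNP R knockdown 24 of 25 tested members were higher (median 0.55), and in axons labelled 7SK knockdown 16 of 16 were (median 0.67). At a mean of 10 FPKM or more, tested or not, 29 of 32 were higher in each comparison (median 0.57 in each). Ndufa4, the most abundant of the group, stood at 147 and 192 FPKM (q = 0.798) in the hnRNP R comparison and at 150.5 and 234 (q = 0.385) in the 7SK comparison of the authors' deposited table. Ndufv3, an accessory subunit of the NADH-binding arm, stood at 115 and 169 FPKM (q = 0.752) and at 118 and 169.9 (q = 0.547) by the authors' deposited table.

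Ndufa3, an accessory subunit of the membrane arm, had the largest ratio of all members after hnRNP R knockdown, with 12.5 FPKM in control axons and 53.7 after it (log2 ratio 2.11, q = 0.221) by the authors' deposited table. In axons labelled 7SK knockdown Ndufa3 stood at 12.8 and 36.2 FPKM (q = 0.225) by the authors' deposited table. Ndufb2, in a merged record, stood at 14.0 and 32.8 FPKM (q = 0.615) after hnRNP R knockdown and Ndufb8, also merged, at 45.1 and 93.2 FPKM (q = 0.192) in the 7SK comparison of the authors' deposited table. These levels were all higher in the knockdown group without passing the authors' threshold. Ndufb10, an accessory subunit of the membrane arm, stood at 41.5 and 78.5 FPKM (q = 0.516) after hnRNP R knockdown, but at 42.8 and 50.1 (q = 0.825) in the 7SK comparison of the authors' deposited table. Ndufb5 was the only tested complex I member lower after hnRNP R knockdown, at 22.7 and 13.9 FPKM (q = 0.797), while the 7SK comparison of the authors' deposited table gave 23.3 and 37.7 (q = 0.587).

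The 7 core subunits of complex I that are encoded in the nucleus form its catalytic arm. Of these, 5 were tested after hnRNP R knockdown in axons and all 5 were higher (median 0.65), and 3 of 3 were higher in axons labelled 7SK knockdown (median 0.54). Ndufv1, the flavin subunit, stood at 20.6 and 32.4 FPKM (q = 0.752) after hnRNP R knockdown by the authors' deposited table. Ndufv2 stood at 31.5 and 47.7 FPKM (q = 0.755) and at 32.4 and 38.2 (q = 0.841), and Ndufs7 at 36.02 and 37.1 (q = 0.988) and at 37.1 and 53.8 (q = 0.564) by the authors' deposited table. Ndufs1 and Ndufs8 lay too low for a test in axons, at 10.9 and 8.48 FPKM and at 8.03 and 16.6 FPKM in the hnRNP R comparison of the authors' deposited table. Ndufs3 stood at 15.2 and 23.9 FPKM (q = 0.794) after hnRNP R knockdown and, untested, at 15.6 and 6.90 in the 7SK comparison of the authors' deposited table.

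Complex II, succinate dehydrogenase, also works in the citrate cycle. All 4 of its subunits were tested in axons; 4 were higher after hnRNP R knockdown (median 0.38) and 3 in axons labelled 7SK knockdown (median 0.42). Sdhc, a membrane anchor, stood at 57.4 and 74.8 FPKM (q = 0.839) after hnRNP R knockdown, but at 59.1 and 35.6 (log2 ratio -0.73, q = 0.436) in the 7SK comparison of the authors' deposited table. Sdhd, the other anchor, stood at 12.8 and 24.9 FPKM (q = 0.615) and at 13.2 and 35.6 (log2 ratio 1.44, q = 0.151) by the authors' deposited table. The anchors thus lay on opposite sides of their controls in the axons labelled 7SK knockdown, neither past the threshold. Sdha, the flavoprotein, stood at 44.1 and 53.8 FPKM (q = 0.883) and at 45.1 and 54.7 (q = 0.807), and Sdhb, the iron-sulphur subunit, at 30.0 and 39.0 (q = 0.842) and at 30.9 and 45.9 (q = 0.514) by the authors' deposited table.

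Complex III, the cytochrome bc1 complex, had 7 of 8 tested members higher after hnRNP R knockdown in axons (median 0.50) and 8 of 8 in axons labelled 7SK knockdown (median 0.83). Uqcc2, an assembly factor needed to make cytochrome b, stood at 17.4 and 52.9 FPKM (log2 ratio 1.60, q = 0.255) and at 17.9 and 67.3 (log2 ratio 1.91, q = 0.0722) by the authors' deposited table. It had the largest ratio of any tested member in the 7SK comparison, and was the only tested assembly factor in axons. Uqcrq, a small subunit, stood at 83.0 and 131 FPKM (q = 0.695) and at 85.4 and 145 (q = 0.385) by the authors' deposited table. Uqcrc2, a core protein without a redox centre, stood at 39.0 and 76.4 FPKM (q = 0.615) and at 40.1 and 73.5 (q = 0.353), and Uqcr10 at 34.8 and 59.9 (q = 0.650) and at 35.7 and 77.9 (q = 0.230) by the authors' deposited table. Uqcrb was the exception among the tested members, at 24.0 and 19.4 FPKM (q = 0.936) after hnRNP R knockdown and at 24.6 and 37.8 (q = 0.742) in the 7SK comparison of the authors' deposited table. Uqcrfs1, untested, was lower than its control in either comparison, at 12.6 and 7.20 FPKM and at 12.9 and 8.74 by the authors' deposited table.

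Complex IV, cytochrome c oxidase, held the most abundant members. After hnRNP R knockdown 9 of 10 tested members were higher in axons (median 0.63), and in axons labelled 7SK knockdown 8 of 8 (median 0.88). Cox8a stood at 221 and 505 FPKM (log2 ratio 1.19, q = 0.221) and at 227 and 463 (log2 ratio 1.03, q = 0.131) by the authors' deposited table. Cox6a1 stood at 206 and 395 FPKM (q = 0.372) and at 211 and 429 (q = 0.106) by the authors' deposited table. Cox5b stood at 124 and 187 FPKM (q = 0.695) and at 127 and 207 (q = 0.353) by the authors' deposited table. Each of these 3 subunits was higher than its control in either comparison, with the control libraries shared, and none was called. Cox4i1 was at 114 and 129 FPKM (q = 0.915) after hnRNP R knockdown and at 118 and 231 (q = 0.214) in the 7SK comparison of the authors' deposited table. Cox7b, called in the 7SK comparison, stood at 53.7 and 91.8 FPKM (log2 ratio 0.77, q = 0.713) after hnRNP R knockdown by the authors' deposited table. Cox6c was the only tested member below its control, at 54.5 and 52.1 FPKM (q = 0.988) after hnRNP R knockdown by the authors' deposited table.

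Complex V, the ATP synthase, showed the smallest shift in axons after hnRNP R knockdown, with 9 of 12 tested members higher and a median of 0.17, close to the 0.14 of all tested genes. In axons labelled 7SK knockdown 10 of 11 were higher (median 0.52). The catalytic core genes lay near their controls: Atp5b stood at 128 and 126 FPKM (q = 0.990) and at 132 and 130.04 (q = 0.990), and Atp5a1, the alpha subunit, at 142 and 152 (q = 0.962) and at 146 and 159 (q = 0.906) by the authors' deposited table. Atp5j2, a subunit of the membrane part, stood at 109 and 190.4 FPKM (q = 0.561) and at 111 and 228 (q = 0.155) by the authors' deposited table. Atp5c1, the gamma subunit of the rotor, stood at 36.2 and 65.7 FPKM (q = 0.410) and at 37.2 and 50.3 (q = 0.590) by the authors' deposited table. The alpha and beta subunits thus gave ratios near 1 while Atp5j2 gave higher ones; differences between subunits were not tested.

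Of the members tested in both comparisons, Atp5k, the small membrane subunit e, differed most between them, at 34.5 and 19.7 FPKM (log2 ratio -0.81, q = 0.743) after hnRNP R knockdown and at 35.4 and 87.5 (log2 ratio 1.31, q = 0.195) in the 7SK comparison of the authors' deposited table. Atp5e, the epsilon subunit, stood at 51.4 and 78.1 FPKM (q = 0.729) and at 52.9 and 131 (q = 0.139) by the authors' deposited table. Atp5f1 stood at 22.6 and 18.4 FPKM (q = 0.906) after hnRNP R knockdown and was not tested in the 7SK comparison, at 23.2 and 30.7, by the authors' deposited table.

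**Figure D2:**
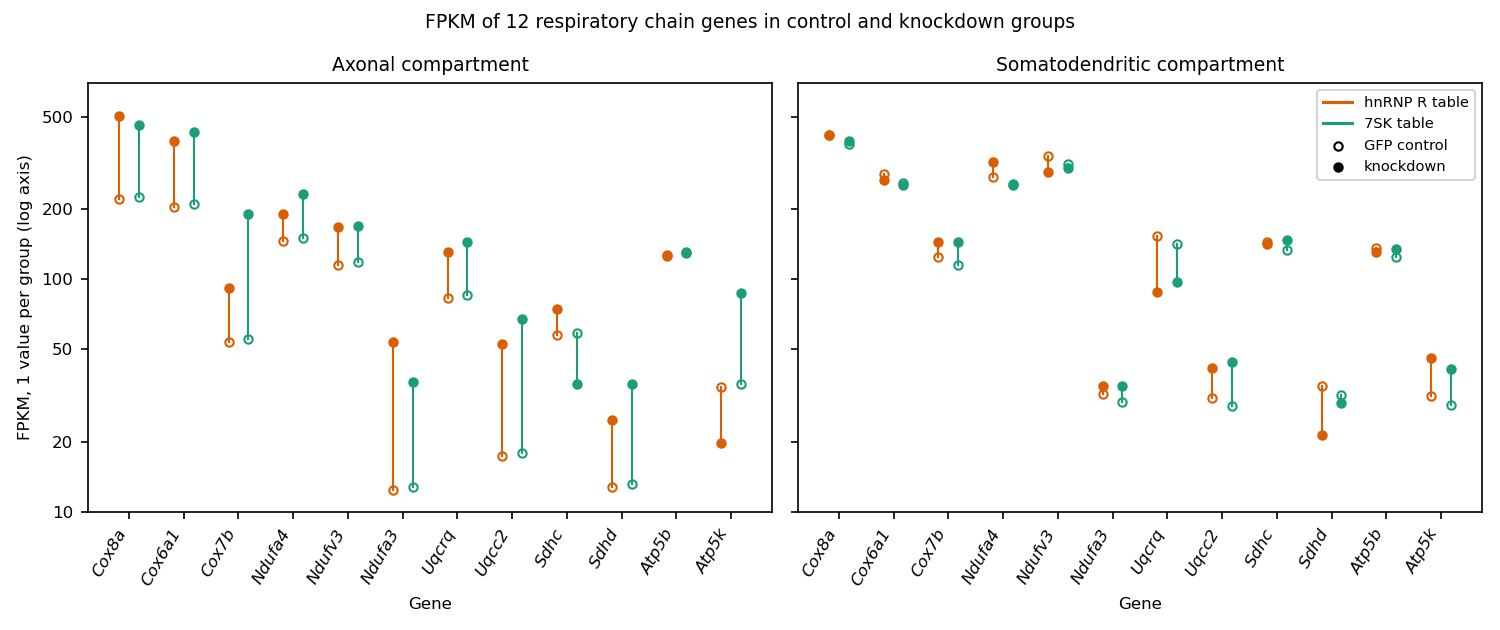
FPKM (log axis) of 12 members in the axonal (left) and somatodendritic (right) groups, open symbols for GFP control and filled for knockdown, each 1 value per group by the authors' deposited tables. Cox8a moves from 221 to 505 FPKM in hnRNP R knockdown axons and lies at 417 and 419 on the somatodendritic side, while Atp5b lies between 126 and 132 on the left.

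On the somatodendritic side the hnRNP R knockdown left the members near their controls. Of 60 tested, 25 were higher and 35 lower, with a median log2 ratio of -0.04 beside 0.02 for all 2768 tested genes; no member was called, where 0.975% of tested genes were. At an unadjusted p under 0.05 there were 3 higher (Ndufb10, Ndufb11, Atp5j2; 5.74% of all tested genes) and 4 lower (Uqcrq, Sdhd, Uqcr11, Atp5f1; 6.54%). Taken by mean level, 26 of 73 members were higher (median -0.07), beside 52.8% of 5000 records (median 0.02). The difference between the axonal and the somatodendritic ratios was not tested, because the files hold no replicate values.

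Complex III members lay lowest there, with 3 of 9 higher and a median of -0.32. Uqcrq stood at 154 and 88.5 FPKM (log2 ratio -0.80, p = 0.00325, q = 0.158) and Uqcr11 at 71.6 and 40.2 (log2 ratio -0.83, q = 0.301) by the authors' deposited table. Uqcrc2 stood at 87.4 and 66.9 FPKM (q = 0.620), while Uqcc2, at 31.0 and 41.5 (q = 0.682), was on the higher side by the authors' deposited table. Sdhd of complex II stood at 34.7 and 21.4 FPKM (q = 0.268) and Sdhc at 146 and 141 (q = 0.942) by the authors' deposited table. In complex I, 11 of 25 members were higher (median -0.03), with Ndufb11 at 35.9 and 61.8 FPKM (q = 0.268) and Ndufb10 at 86.9 and 123 (q = 0.291) at the upper end and Ndufc1 at 41.8 and 23.2 (q = 0.544) and Ndufa8 at 31.2 and 18.0 (q = 0.410) at the lower end of the authors' deposited table. At a mean of 10 FPKM or more, tested or not, 11 of 36 complex I members were higher (median -0.19), beside 52.8% of 5000 records. Ndufa4 stood at 276 and 321 FPKM (q = 0.588) and Ndufv3 at 341 and 290.4 (q = 0.585) by the authors' deposited table. Complex IV kept closest to its control, with log2 ratios from -0.17 to 0.24 over 10 tested members (4 higher, median -0.02). Cox8a stood at 417 and 419 FPKM (q = 0.990) and Cox6a1 at 283 and 268 (q = 0.865) by the authors' deposited table. Complex V had 5 of 12 higher (median -0.04), with Atp5k at 31.4 and 45.9 FPKM (q = 0.651), Atp5j2 at 205 and 259 (q = 0.314) and Atp5f1 at 50.5 and 34.8 (q = 0.365) by the authors' deposited table.

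After 7SK knockdown on the somatodendritic side, where Rn7sk itself fell, 38 of 57 tested members were higher, with a median of 0.12 beside 0.06 for all 1954 tested genes, of which 57.1% were higher. No member was called, where 2.51% of tested genes were. Acta2, the fibroblast marker named above, rose there from 76.3 to 130.2 FPKM (q = 0.00407) by the authors' deposited table, and its part was not tested. It was the only fibroblast marker tested there and made up most of their sum (88.8 and 141.0 FPKM). At an unadjusted p under 0.05 there were 2 members, both higher, beside 8.29% of all tested genes in that direction: Ndufa6 at 45.9 and 87.0 FPKM (log2 ratio 0.92, q = 0.128) and Ndufv1 at 24.8 and 38.5 (log2 ratio 0.64, q = 0.325) by the authors' deposited table. Taken by mean level, 46 of 73 were higher (median 0.10), beside 58.1% of 4877 records (median 0.08). The complex medians were 0.15 (I, 22 tested), 0.10 (II, 4), 0.27 (III, 9), 0.08 (IV, 10) and 0.13 (V, 12). Within complex III, Uqcc2 stood at 28.5 and 44.3 FPKM (q = 0.462), Uqcrh at 40.2 and 61.7 (q = 0.435) and Uqcr10 at 46.1 and 70.5 (q = 0.424), whereas Uqcrq stood at 142 and 97.3 (log2 ratio -0.55, q = 0.376) by the authors' deposited table. Cox7b, called in the axons, stood at 115 and 145 FPKM (q = 0.667) and Cox8a at 383 and 395 (q = 0.915) by the authors' deposited table.

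Tissue isoforms of the same subunit were mostly represented by the form that is common to all tissues. Cox4i1 stood at 114 FPKM in control axons and 153 on the control somatodendritic side, and Cox4i2 was listed at 0 in each, by the authors' deposited table. Cox6a1, Cox7b and Cox8a were likewise abundant, while Cox6a2, known from heart and muscle, Cox8b and Cox8c were listed at 0 in all control groups, and Cox7a1 and Cox7b2 stayed under 1 FPKM, by the authors' deposited table. Cox7a2 stood at 21.0 and Cox7a2l, which helps supercomplexes form, at 13.4 FPKM in control axons of the authors' deposited table. Cox6b1 stood at 102 FPKM and Cox6b2 at 14.4 in control axons, and at 133 and 2.37 on the somatodendritic side, of the authors' deposited table. Ndufa4l2, the hypoxia-related relative of Ndufa4, was listed at 0 in every group. Of the genes for the c-ring of ATP synthase, which encode the same mature protein, Atp5g3 stood at 57.1 FPKM in control axons, Atp5g1 at 5.92 and Atp5g2 was listed at 0, by the authors' deposited table. Some subunits that all cells use were also listed at or near 0, namely Atp5l (0 FPKM in control axons), Ndufb4 (0) and Cox7c (1.93) by the authors' deposited table, so these genes are only said to be listed at 0; the cause was not tested.

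Other genes of mitochondrial energy metabolism were read from lists. The 13 subunits encoded in mitochondrial DNA fell into 4 records, of which 1 merged 9 genes. In axons after hnRNP R knockdown 3 of the 4 records were higher, and in axons labelled 7SK knockdown 4 of 4 were, none called. The record with mt-Co1 stood at 5897 and 7299 FPKM (q = 0.898) and at 6034 and 11079 (q = 0.439), and mt-Cytb of complex III at 3667 and 4581 and at 3753 and 7079, by the authors' deposited table. Of these records 2 were higher on the somatodendritic side in each comparison, with log2 ratios from -0.17 to 0.05 after hnRNP R knockdown and from -0.11 to 0.28 after 7SK knockdown. Of 40 further factors (cytochrome c, its partners and assembly factors outside the named stems) 39 were found by symbol. In axons 5 and 3 of them were tested, and 4 and 3 were higher (medians 0.58 and 1.18), none called. Atpif1, the inhibitor of ATP synthase, stood at 149 and 223 FPKM (q = 0.695) and at 153 and 349 (q = 0.0893), and Cyc1, cytochrome c1 of complex III, at 21.8 and 36.2 (q = 0.676) and at 22.4 and 50.6 (q = 0.186) by the authors' deposited table.

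Neighbouring pathways had axonal medians near 0. Of 16 citrate cycle genes 8 were tested after hnRNP R knockdown in axons, 4 of them higher (median 0.00), and 4 in axons labelled 7SK knockdown, 3 higher (median 0.02). Of 17 glycolysis genes 10 and 9 were tested, with 5 and 6 higher (medians -0.02 and 0.12), none called in axons. Aldoa, the most abundant of these glycolytic enzymes, stood at 168 and 179 FPKM (q = 0.9502) after hnRNP R knockdown in axons of the authors' deposited table. Of 15 transcriptional regulators of mitochondrial genes 14 were found by symbol, and none reached a test in any comparison. Nrf1 stood at 14.0 and 4.72 FPKM and Ppargc1a, a coactivator of mitochondrial biogenesis, at 10.5 and 6.33 after hnRNP R knockdown in axons of the authors' deposited table. The whole list summed to 76.6 and 66.5 FPKM there and to 78.7 and 73.8 in the 7SK axon comparison. On the somatodendritic side it summed to 90.1 and 102.3 FPKM after hnRNP R knockdown and to 83.0 and 102.0 after 7SK knockdown.

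In iCLIP, the 93 members took between 0.0994% and 0.532% of the cDNAs of a library. The libraries differed widely in depth, from 2796 to 456721 sense cDNAs, and intervals and zero limits below cover counting error only. In NSC34 cells the hnRNP R libraries gave 1466 of 456721 cDNAs (0.321%, exact 95% binomial interval 0.305 to 0.338) and 332 of 99762 (0.333%, 0.298 to 0.371). The IgG control gave 104 of 36280 (0.287%, 0.234 to 0.347), an interval that overlaps both. In motoneurons the share was 357 of 359005 (0.0994%, 0.0894 to 0.110) and 402 of 319381 (0.126%, 0.114 to 0.139), with 0.129% in the nuclear and 0.119% in the cytoplasmic fraction. All 4 motoneuron shares were thus below all 7 NSC34 shares, IgG included; the share of the shallowest of these, the cytoplasmic antibody 2 library, was 0.322% (0.147 to 0.610). Without Cox7b2 the NSC34 shares were 0.292% and 0.305% and the motoneuron shares stayed at 0.0992% and 0.126%. The file of the IgG library carries hnRNPR in its header and the same library number, 14, as NSC34 replicate 2, one of the libraries it is compared with, so its identity rests on its title.

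**Figure D3:**
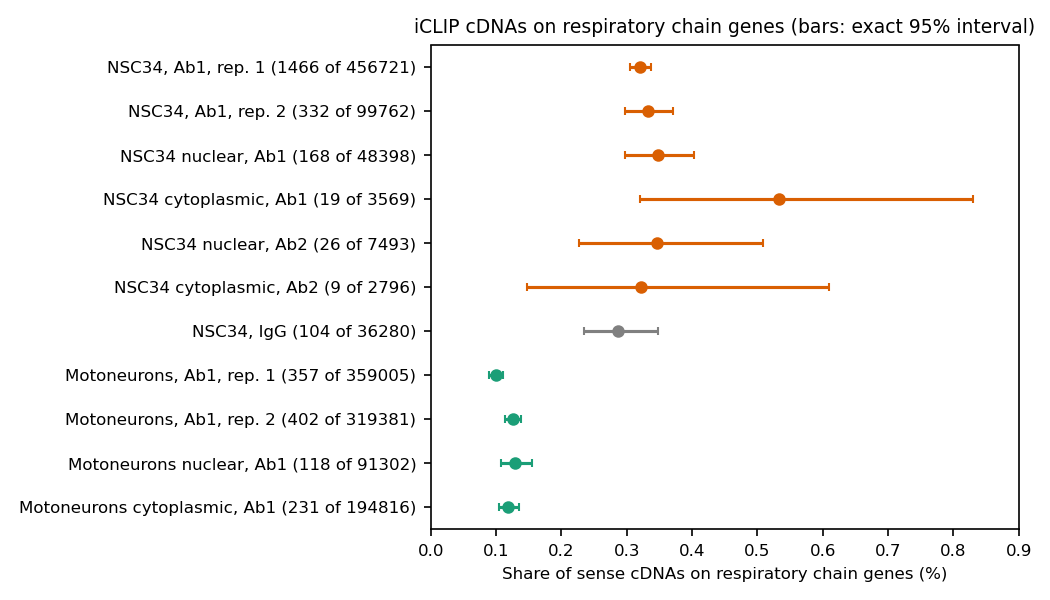
Share of each library's sense cDNAs that fell on the 93 members (%), with exact 95% binomial intervals for counting error; orange is hnRNP R in NSC34 cells, grey is IgG in NSC34 cells and green is hnRNP R in motoneurons. The motoneuron libraries lie between 0.0994% and 0.129%, below the 0.287% of the IgG library.

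By complex, the first NSC34 library gave 0.132% of its cDNAs to complex I, 0.0381% to complex II, 0.0293% to complex III, 0.0593% to complex IV and 0.0626% to complex V, and the first motoneuron library 0.0432%, 0.00836%, 0.0136%, 0.0120% and 0.0223%. Most of these cDNAs lay in introns: 1076 of 1466 in that NSC34 library (73.4%, beside 77.3% of all its cDNAs) and 284 of 357 in that motoneuron library (79.6%, beside 88.1%). Coding sequence took 16.3% and 12.3% of the member cDNAs, beside 6.84% and 3.03% of all cDNAs in these libraries. Complex V had the largest coding share of the complexes in each of them (26.9% and 22.5%), and complex II in NSC34 cells the largest share in 3′UTRs (33.9%). In the IgG library coding sequence took 24.0% of member cDNAs beside 12.1% of all its cDNAs, so the higher coding share was present there too.

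The cDNAs were spread unevenly over the members. Over the 10 hnRNP R libraries 62 of 93 members had 10 cDNAs or more, 8 had none, and the 10 leading members held 46.1%. Members of greater gene length had more cDNAs (Spearman rho 0.80 over 93 genes, a description across genes that share all libraries), and less so members with a higher somatodendritic control FPKM (rho 0.34 over 91). Counted without introns, the cDNAs followed that FPKM more closely (rho 0.57 over 91). Ndufs4, a core-associated subunit of complex I (chromosome 13, 115078858 to 115178259, mm9), led with 340 cDNAs, 336 of them in introns. It had 137 and 26 in the NSC34 libraries, 52 and 62 in the motoneuron libraries and 7 in IgG. Ndufaf2, an assembly factor of complex I, had 138, 135 of them in introns, and Uqcc (Uqcc1 in the RNA tables), an assembly factor of complex III, had 121, with 115 in introns. Ndufs1 had 103 with 83 in introns, and Atp5c1 104 with 92 in introns.

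Exonic cDNAs were prominent on a few genes. Atp5b (chromosome 10, 127520328 to 127527446, mm9) had 92 cDNAs, 81 of them in coding sequence, with 43 and 16 in the NSC34, 11 and 7 in the motoneuron and 5 in the IgG libraries. Per 1000000 cDNAs of a library these were 94.1 and 160.4, 30.6 and 21.9, and 137.8. Sdhc (chromosome 1, 173057295 to 173080733, mm9) had 120, of which 64 lay in its 3′UTR, with 70 and 13 in the NSC34, 8 and 5 in the motoneuron and 1 in the IgG libraries. Per 1000000 cDNAs of a library Sdhc had 153.3 and 130.3, 22.3 and 15.7, and 27.6 in that order. Atp5f1 had 30 of 127 and Uqcrc2 23 of 109 in the 3′UTR. Against these, all 64 cDNAs of Atp5g2 and all 46 of Atp5l lay in introns, and these are genes that the control RNA groups listed at 0 to 1.97 FPKM by the authors' deposited table.

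**Figure D4:**
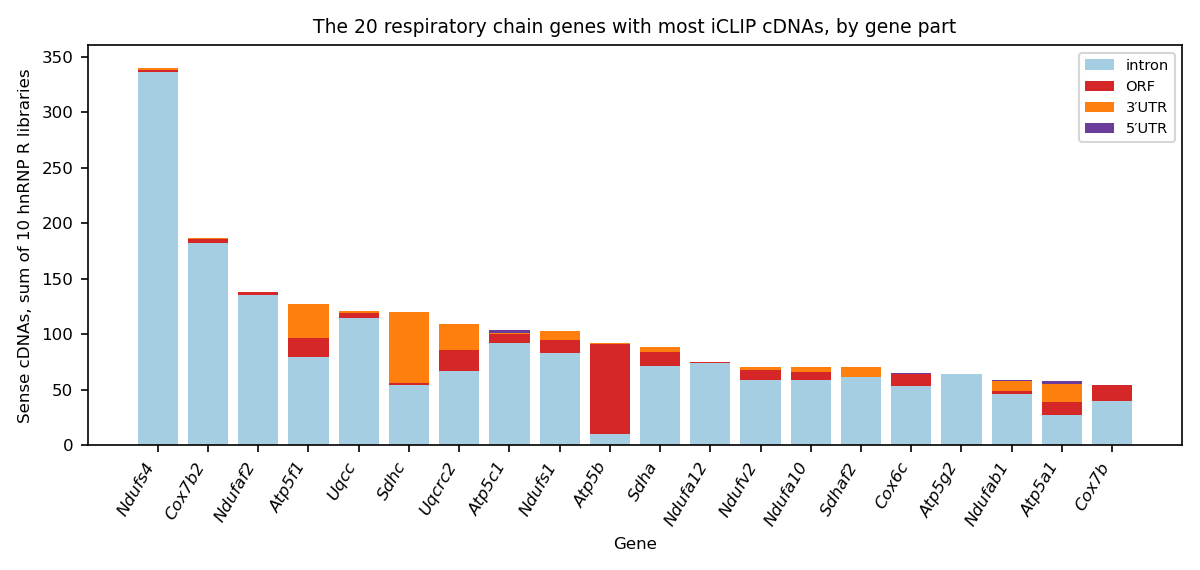
Sense cDNAs over the 10 hnRNP R libraries (y axis, counts) for the 20 members with most of them, stacked by gene part. Introns dominate for Ndufs4 (336 of 340), coding sequence for Atp5b (81 of 92) and the 3′UTR takes 64 of 120 on Sdhc.

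Between cell types, 8 of 58 members kept in the fit differed by edgeR's quasi-likelihood test (Benjamini-Hochberg over 9567 genes), all lower in motoneurons than in NSC34 cells, where 13.9% of all genes were called lower, 23.4% higher and 37.3% in either direction. No member was called higher, and the share of members called lower was near that background. The series holds no RNA libraries of NSC34 cells and no IgG library of motoneurons. Crosslinking, RNA level and unspecific signal therefore cannot be told apart in this comparison. The median log2 ratio of the members was -0.58, beside 0.08 for all genes. Cox7b2, an isoform of Cox7b best known from testis, differed most: it had 132 and 28 cDNAs in the NSC34 libraries, 8 in IgG and 1 and 0 in the motoneuron libraries (log2 ratio -6.36, edgeR adjusted p = 1.38e-13). Per 1000000 cDNAs of a library Cox7b2 had 289.0 and 280.7 with hnRNP R in NSC34 cells and 220.5 with IgG. Its cDNAs lay in introns in 182 of 187 cases (chromosome 5, 71834062 to 71939443, mm9). This was the only member called in every alternative fit that was run, and the only one called by DESeq2.

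The remaining members called lower in motoneurons came from all 5 complexes. In complex II, Sdhc had a log2 ratio of -1.97 (edgeR adjusted p = 0.000460) and Sdhb, with 31 and 7 cDNAs in NSC34 and 2 and 4 in motoneuron libraries, one of -1.97 (edgeR adjusted p = 0.0110). Uqcrq of complex III had 14 and 8 cDNAs against 1 and 0 (log2 ratio -3.72, edgeR adjusted p = 0.00535). Cox6a1 of complex IV had 12 and 9 against 2 and 0 (log2 ratio -2.84, edgeR adjusted p = 0.0184), and Ndufa12 of complex I 49 and 9 against 2 and 7 (log2 ratio -1.97, edgeR adjusted p = 0.00242). In complex V the ratios were -1.17 for Atp5b (edgeR adjusted p = 0.0431) and -1.47 for Atp5g2 (edgeR adjusted p = 0.0297), the latter with 40 and 6 against 6 and 4. Ndufs4 and Ndufaf2, which lead by count, did not differ beyond the threshold (edgeR adjusted p = 0.664 and 0.582). The number called lower was 1 with DESeq2, where 4.95% of all genes were. It was 6 without NSC34 replicate 1 (8.85% of all genes), 5 without NSC34 replicate 2 (12.0%), 8 without motoneuron replicate 1 (14.8%), 8 without motoneuron replicate 2 (14.3%) and 9 without the IgG library (14.0%). Some ratios moved with single libraries: over the fits run, the log2 ratio of Cox6a1 ranged from -6.08 (without motoneuron replicate 1) to -1.99 (without motoneuron replicate 2), Uqcrq from -6.11 (without motoneuron replicate 1) to -2.94 (without motoneuron replicate 2), Ndufa12 from -3.27 (without motoneuron replicate 2) to -1.43 (without motoneuron replicate 1), and Atp5b from -1.83 (without NSC34 replicate 1) to -0.99 (without motoneuron replicate 2). Each kept its direction in these fits. Besides DESeq2, the call of Cox6a1 and of Atp5b was lost without NSC34 replicate 2 and without motoneuron replicate 2, that of Uqcrq without NSC34 replicate 2 and that of Ndufa12 without NSC34 replicate 1. That of Sdhb was lost without NSC34 replicate 1 and without motoneuron replicate 1, and that of Atp5g2 without NSC34 replicate 1, without motoneuron replicate 2 and with the replicate block.

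Over the IgG control no member was called in NSC34 cells by edgeR, where 0.533% of genes were called in either direction, and 5 of 58 had an unadjusted p under 0.05, beside 10.3% of all genes, while DESeq2 gave 0 called and 0 at an unadjusted p under 0.05. Those 5 were Sdhc (70 and 13 cDNAs against 1), Sdha (37 and 6 against 0), Uqcc (47 and 15 against 1) and Ndufab1 (31 and 7 against 0), higher than IgG for their depth, and Ndufa6, lower. The lone IgG library is assumed in this fit to vary like the other libraries. A count of 0 in it allows up to 0.00827% of its cDNAs. Between nuclear and cytoplasmic fractions, 19 members could be tested and none was called by edgeR or DESeq2 or had an unadjusted p under 0.05 in either, where edgeR called 0% of 5177 genes and 0.522% had an unadjusted p under 0.05. The cytoplasmic NSC34 libraries held only 3569 and 2796 cDNAs, of which 19 and 9 fell on members, so differences were hardly detectable at this depth.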

How the data were processed

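RNA and iCLIP data of 33 libraries were used as deposited. The members and lists were chosen with earlier results of these data known. FPKM values (1 per group and table), log2 fold changes, the test score, p-values and q-values were made by the authors and deposited in 4 comparison tables (Cufflinks 2.2.1, FastQC 0.10.1, build GRCm38, per the submitters' processing notes); aligner and annotation release: not stated there. The log2 ratio is knockdown over control; the score was not used further. The iCLIP values are counts of cDNAs per gene and gene part, deposited by the authors, on mm9 with Ensembl release 59 per the file headers; 1243 further per-sample columns were not used.

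Calls are the authors' q under 0.05 where their test was completed, and set medians are over tested members. Locus starts of the RNA tables were moved to count from 1. iCLIP counts of sense cDNAs with at least 10 over the libraries of a fit were tested with edgeR 4.0.16 (R 4.3.3, TMM, quasi-likelihood), in 1 fit of the 5 unfractionated libraries and 1 of the 6 fractions with a block for cells and antibody; DESeq2 1.42.0 was an alternative. The script was tested on simulated data. Intervals are exact binomial (Clopper-Pearson, 95%). Promoters were matched through 93 RefSeq symbols and 4 synonyms.

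Named members are those called, per complex the 3 most abundant tested, the 5 highest and 5 lowest ratios of a comparison, the core subunits of complex I and the isoform families; in iCLIP the 10 with most cDNAs and those called. Other members named in the text, such as those at an unadjusted p under 0.05, were chosen after their values were seen. Some members that the rule names have no sentence of their own and are covered by the counts and ranges. The values of 1 member that the rule names are not reported here.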

Additional observations from a re-analysis of the deposited data

Results flagged for a closer look

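Antisense cDNAs on the members, which no comparison above uses, were above the IgG level in 1 library. The NSC34 cytoplasmic library of antibody 2 held 3 of them in 2796 cDNAs, or 1073 per 1000000 cDNAs (exact 95% interval 221.3 to 3132), while IgG held 2, or 55.1 per 1000000 (6.68 to 199.1). The other 9 hnRNP R libraries ran from 0 to 560.4 per 1000000, each with an interval that overlaps that of IgG. The value rests on 3 cDNAs.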

How the results depend on the processing

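Over the 4 RNA comparisons, an unadjusted p under 0.05 in place of q under 0.05 gave 6 members in axons after hnRNP R knockdown, 12 in axons labelled 7SK knockdown, 7 on the somatodendritic side after hnRNP R knockdown and 2 after 7SK knockdown; q under 0.01 gave 0 in axons labelled 7SK knockdown. On the somatodendritic side the member median after hnRNP R knockdown (-0.04) was -0.059 relative to the median of all tested genes and -0.073 for members at a mean of 10 FPKM or more, an alternative chosen after seeing the data, and the median after 7SK knockdown (0.12) was 0.063 relative to all tested genes. Taking all members at 1 FPKM or more with a pseudocount of 0.1 turned the medians of complex II (-0.12) and complex V (0.071) after hnRNP R knockdown on that side; the cause was not tested. Relative to the median of all tested genes, the axonal medians after hnRNP R knockdown were 0.24 for complex II and 0.036 for complex V, and in axons labelled 7SK knockdown 0.44, 0.19 and 0.29 for complexes I, II and V. With these 5, 16 values for single complexes moved by over 1.5 times without turning, the others on the somatodendritic side. For motoneurons against NSC34 cells DESeq2 called 1 member, and leaving out an hnRNP R library gave 5 to 8. The replicate block gave 7 members and 3211 genes (3566 without it), and in the fractions the fit with no replicate block gave 0. Same-numbered libraries did not deviate together (r = 0.0026). With 2 libraries per group this is a single correlation, which cannot show whether the libraries were handled in pairs. Without the IgG library, chosen after seeing the data, 9 members were called. For the RNA tables no paired analysis was possible because they hold 1 value per group, and leaving out a replicate could not be run there for the same reason. The few cDNAs of the cytoplasmic NSC34 libraries limit what the fractions can show.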
